A study of Homo sapiens with 17 samples.

Results

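The lysosome and autophagy genes described here are 58 of the 14613 genes that appear in either deposited table of PC3M cells, a metastatic subline of the PC3 human prostate cancer line. They were chosen by symbol alone, as the subunits of the vacuolar ATPase (ATP6V0, ATP6V1) and its accessory proteins (ATP6AP1, ATP6AP2), the cathepsins (CTS followed by 1 letter), LAMP1 and LAMP2, the numbered ATG genes, and the GABARAP and MAP1LC3 genes. Of these, 33 code for lysosome proteins and 23 for autophagy proteins, and 2 are antisense RNAs that share the symbol of an ATPase gene. Each table held 57 of them. A gene was tested where it reached 10 normalised counts in at least 2 libraries of the MG132 table or 3 of the heat shock table, which left 27 lysosome and 21 autophagy genes in each table. Those not tested were ATP6V0A1, ATP6V0A4, ATP6V1G2, CTSF, CTSK, CTSO, ATG9B, MAP1LC3B2 and both antisense RNAs, ATP6V0E2-AS1 and ATP6V1B1-AS1.

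The study measured messenger RNA in 17 libraries of 7 groups, with 1 tag read near the 3′ end of each transcript. In the MG132 table, with 2 libraries in each group, cells transfected for 72 h with a non-targeting siRNA (siNT) were given either DMSO or 2.5 µM of the proteasome inhibitor MG132 for 4 h. The same dose of MG132 was given to cells in which siRNA had been used to knock down JMJD6 (siJMJD6), a JmjC-domain oxygenase, and to cells with a knockout (KO) of HSF1, the transcription factor that drives the heat shock response. The labels name no siRNA for the KO libraries, so in the comparisons with siNT and siJMJD6 the knockout and a possible difference in transfection cannot be told apart. In the heat shock table, with 3 libraries in each group, siNT cells were left at 37 °C (basal), and siNT and siJMJD6 cells were held at 42 °C for 1 h and then recovered for 2 h. Whether the libraries of a group came from separate cultures is not stated, so the p-values speak only to the spread among these libraries, and that spread may be technical. The labels also do not say whether the KO libraries A and B are separate clones, and they give no sequence for either siRNA. Since no unstressed siJMJD6 or KO library was analysed here, differences that arose under stress and those already present before it cannot be told apart.

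Lysosomes break down proteins, lipids and sugars in an acid interior. The vacuolar ATPase pumps the protons: its V1 sector in the cytosol hydrolyses ATP, and its V0 sector in the membrane carries the protons across. Cathepsins are the proteases of the interior, and LAMP1 and LAMP2 are the most abundant glycoproteins of the lysosomal membrane. In autophagy a double membrane closes around cytoplasm and fuses with the lysosome. Its first steps need the ULK1 complex with ATG13 and ATG101, a lipid kinase complex with ATG14, and the lipid transfer proteins ATG2A and ATG2B. A conjugation system (ATG3, ATG7, ATG10, ATG12, ATG5, ATG16L1) then attaches proteins of the ATG8 family (GABARAP, LC3) to the membrane, and ATG4 proteases process them. Many lysosome genes carry a palindrome in their promoters, the CLEAR element, that is bound by the transcription factors TFEB and TFE3.

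That palindrome, TCACGTGA, stood within the 250 bases before the start site in 4 of the members with a RefSeq promoter, and all 4 belong to the lysosome set. The stretches below show it, because each of the 4 genes is described with siJMJD6 further on. They are from RefSeq on GRCh38.p14, written 5′ to 3′ on the strand of the gene, with TCACGTGA and any other CACGTG in capitals.
ATP6V0D1: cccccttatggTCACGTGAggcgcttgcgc
ATP6V1G1: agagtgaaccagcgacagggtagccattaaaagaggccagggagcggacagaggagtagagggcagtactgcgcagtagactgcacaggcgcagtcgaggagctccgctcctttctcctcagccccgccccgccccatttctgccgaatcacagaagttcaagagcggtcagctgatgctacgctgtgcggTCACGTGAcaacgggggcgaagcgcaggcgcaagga
CTSA: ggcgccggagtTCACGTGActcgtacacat
LAMP1: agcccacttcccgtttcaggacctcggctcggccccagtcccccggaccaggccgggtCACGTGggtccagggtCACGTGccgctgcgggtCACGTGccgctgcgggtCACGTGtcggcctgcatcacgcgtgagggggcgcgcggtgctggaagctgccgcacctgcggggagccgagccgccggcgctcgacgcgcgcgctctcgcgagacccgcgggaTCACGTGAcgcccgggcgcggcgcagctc
The ATP6V0D1 stretch is chr16:67481199-67481228 on the minus strand, and its palindrome ends 52 bases before the start site. The ATP6V1G1 stretch is chr9:114587519-114587745 on the plus strand, with the palindrome ending 51 bases before the start site. The CTSA stretch is chr20:45891298-45891327 on the plus strand, with the palindrome ending 18 bases before the start site. The LAMP1 stretch is chr13:113296989-113297238 on the plus strand, holds 5 copies of CACGTG, and its palindrome ends 21 bases before the start site. In the GENCODE annotation of GRCh38 the palindromes of ATP6V0D1 and CTSA lie inside annotated exons, and those of ATP6V1G1 and LAMP1 lie in no exon. The genes with exons in these windows are ATP6V0D1 and AC009061.2, and CTSA and NEURL2. Both stretches lie within the GENCODE bounds of their own gene (67438014 to 67481237 for ATP6V0D1, 45890144 to 45898820 for CTSA). They stand before the RefSeq start site used here but not before the outermost GENCODE start.

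A promoter was on hand for 45 of the 56 coding members, and both strands were searched. CACGTG, which is part of TCACGTGA, was found in 10 of 45 members (22.2%), against 7.73% of 27305 genes and 6.34% of 35116 windows of the same length. By class it was in 8 of 23 lysosome genes (34.8%) and 2 of 22 autophagy genes (9.09%), ATG14 and ATG3. TCACGTGA was in 4 of 45 members (8.89%), against 1.04% of all genes and 0.854% of all windows. The heat shock element, the motif HSF1 binds, was in 0 of 45 members, against 0.557% of all genes and 0.441% of all windows. The core motif of ATF4 response elements, TGATGCAA, was also in 0 of 45, against 0.967% of genes and 0.772% of windows. These are counts of letters in a window and show no binding.

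The labels were checked on the targeted genes first. JMJD6 read 167 and 129.8 normalised counts in siNT cells under MG132 and 26.6 and 16.6 in siJMJD6 cells, and 209, 210.2 and 253 against 9.72, 7.66 and 14.6 after heat shock (limma log2 fold changes -2.75 ± 0.32, adjusted p = 0.000310, and -4.31 ± 0.18, adjusted p = 1.16e-19). HSF1 read 1687 and 1884 in siNT and 285 and 175 in KO libraries under MG132 (-2.99 ± 0.27, adjusted p = 5.32e-05). In siJMJD6 libraries under MG132 it read 2968 and 2216. JMJD6 read 80.5 and 79.4 in the KO libraries, below siNT under MG132 and between the 88.7 and 70.9 of siNT with DMSO. The comparisons of the KO with siNT and with siJMJD6 therefore also hold a difference in JMJD6 RNA. Library totals lay between 1505826 and 1819640 normalised counts. Libraries of 1 group correlated across genes at r between 0.967 and 0.977 in the heat shock table and between 0.919 and 0.953 in the MG132 table. Log2 fold changes had a median standard error of 0.195 after heat shock and 0.394 under MG132. All 5 epithelial and all 4 mesenchymal marker genes passed the test filter in both tables, and 0 of 5 markers of androgen receptor-positive prostate cells did, as known for PC3 cells.

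MG132 alone and heat shock alone moved 0 of the 48 tested members past the threshold used throughout, an adjusted p under 0.05 by limma over all genes tested. Under MG132 against DMSO, 0.266% of all genes were called, 0.205% higher and 0.0614% lower. At an unadjusted p under 0.05, limma had 0 lysosome genes and 2 autophagy genes in that comparison, 4.17% of the 48 members against 5.66% of all genes. The lipid transfer gene ATG2A read 44.5 and 68.2 with DMSO and 88.6 and 109 with MG132, a log2 fold change of 0.82 ± 0.31. ATG5, which forms the conjugate with ATG12, read 43.8 and 44.0 and 14.5 and 29.3, a log2 fold change of -1.05 ± 0.41 (limma adjusted p = 0.745 for both genes). In each gene the groups did not overlap, with MG132 higher for ATG2A and lower for ATG5, which was so for 18.3% and 18% of all genes. The median log2 fold change was 0.10 over the lysosome genes, 0.13 over the autophagy genes and -0.0049 over all genes.

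After heat shock, 4.09% of all genes were called, 2.86% higher and 1.23% lower, and again 0 members by limma. Unadjusted p-values under 0.05 went to 4 members with higher values and 3 with lower ones, 8.33% and 6.25% of the 48, close to the 8.37% and 6.7% of all genes. ATP6V1A, the catalytic subunit of the V1 sector, read 75.9, 89.8 and 80.8 in basal and 94.7, 118 and 107 in heat-shocked libraries, a log2 fold change of 0.37 ± 0.14 (limma adjusted p = 0.181). ATG13 of the ULK1 complex read 27.4, 31.7 and 34.3 and 51.3, 42.4 and 43.8, a log2 fold change of 0.54 ± 0.21 (limma adjusted p = 0.187). In both genes all heat-shocked libraries lay above all basal ones, which held for 10.5% of all genes, while 9.21% had all of them below. The other members with higher values were ATP6V1C1 and ATG12, and those with lower values were CTSC, LAMP2 and CTSV. CTSV, a cysteine protease close to CTSL, was low throughout, at 19.2, 19.4 and 15.1 in basal and 9.58, 5.01 and 15.9 in heat-shocked libraries, and these overlapped. Its log2 fold change of -0.88 ± 0.33 (limma adjusted p = 0.153) passed the threshold only without siNT heat shock replicate 3, at -1.24 with an adjusted p of 0.0296. Median log2 fold changes were -0.06 over lysosome genes, 0.04 over autophagy genes and -0.0020 over all genes.

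**Figure D1:**
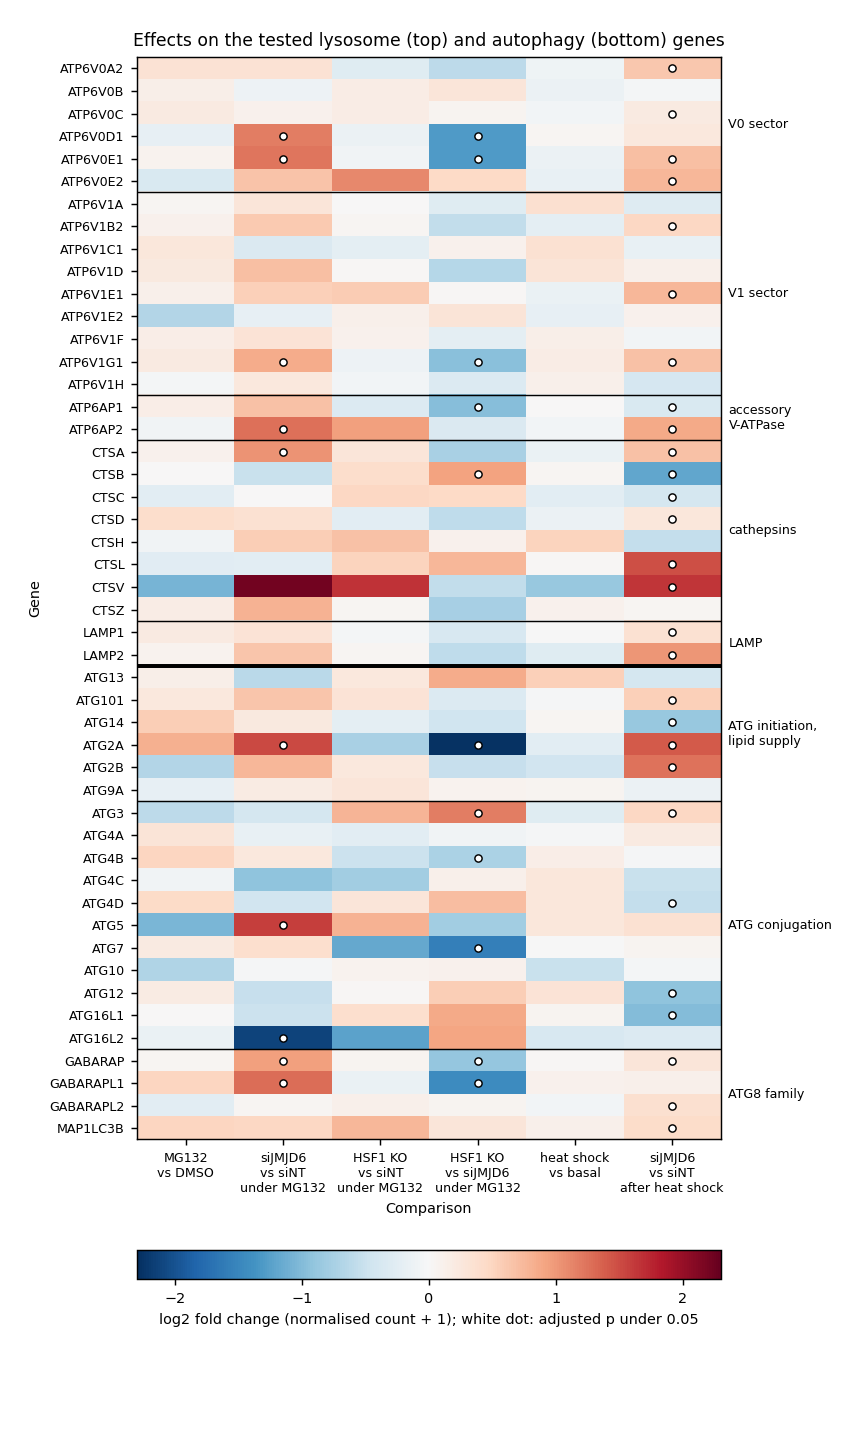
Log2 fold change of each of the 48 tested genes (rows, grouped by role, lysosome above and autophagy below the thick line) in the 6 comparisons (columns), with a white dot where the limma adjusted p was under 0.05. The columns for MG132 against DMSO, heat shock against basal and HSF1 KO against siNT hold no dot, and the last column, siJMJD6 after heat shock, holds 28.

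With JMJD6 knocked down, lysosome genes were called mostly on the higher side. After heat shock 14 of 27 tested lysosome genes rose and 3 fell, and of 21 autophagy genes 7 rose and 4 fell. In that comparison 46.4% of all genes were called, 21.4% higher and 24.9% lower, so the share of autophagy genes called (52.4%) lay near that of all genes and the share of lysosome genes was 63.0%. The median log2 fold change was 0.24 over lysosome genes, 0.06 over autophagy genes and -0.03 over all genes. Libraries of the groups did not overlap in 13 lysosome genes that were higher and 5 that were lower, against 25.2% and 28.8% of all genes. In bulk libraries such as these a change in the share of cells and a change in RNA per cell cannot be told apart.

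Within the proton pump, 4 of 6 tested V0 genes and 3 of 9 V1 genes rose after heat shock and 0 fell. The called shares were 66.7% of V0 and 33.3% of V1 genes, against 46.4% of all genes (21.4% higher, 24.9% lower). ATP6V0E1, a small membrane subunit (chromosome 5, 172983757 to 173035445, GRCh38), read 166, 198 and 202 in siNT and 295, 314 and 309 in siJMJD6 libraries. All 3 siJMJD6 libraries lay above all siNT libraries, basal ones included (236, 187 and 198). The rise was 1.62-fold (log2 0.70 ± 0.11, limma adjusted p = 3.97e-06). ATP6V1G1, of the peripheral stalk and one of the genes whose palindrome is printed above (chromosome 9, 114587746 to 114598373), read 534, 513 and 615 and 896, 877 and 888. The siJMJD6 libraries lay close together and above every other library of that table, a rise of 1.61-fold (log2 0.68 ± 0.093, adjusted p = 1.92e-07). ATP6V1E1, the partner of the G subunit in that stalk, rose from 118, 117 and 140.2 to 207, 210.2 and 218 (log2 0.76 ± 0.12). The remaining called subunits were ATP6V0A2 (0.63 ± 0.25), ATP6V0C (0.21 ± 0.083), ATP6V0E2 (0.76 ± 0.15) and ATP6V1B2 (0.48 ± 0.12), all higher. ATP6V0D1, whose palindrome is also printed, was not called here (0.24 ± 0.17, adjusted p = 0.264), and its groups overlapped. ATP6V1A, with values of 85.6, 88.2 and 84.3 in siJMJD6 libraries, was not called either (-0.30 ± 0.14, adjusted p = 0.0874), though all 3 lay below the siNT heat shock libraries. ATP6V0C has processed copies elsewhere in the genome and ATP6V0E2 overlaps an antisense gene, so reads of these may be shared. The sources used here do not give the strand setting of the counting.

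The accessory genes of the pump went apart after heat shock. ATP6AP2, also known as the prorenin receptor (chromosome X, 40579372 to 40606848), read 371, 406 and 349 in siNT and 742, 664 and 663 in siJMJD6 libraries. The groups were far apart, with the lowest siJMJD6 library above the highest siNT one, and the rise was 1.83-fold (log2 0.88 ± 0.091, limma adjusted p = 8.32e-10, the smallest of the 48 members). ATP6AP1, which guides assembly of the V0 sector, fell from 353, 392 and 393 to 306, 282 and 304 (log2 -0.35 ± 0.096, adjusted p = 0.00309). Its siJMJD6 libraries all lay below the siNT ones.

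Of 8 tested cathepsins 4 rose and 2 fell after heat shock, or 50% and 25%, against 21.4% and 24.9% of all genes. CTSL, a cysteine protease (chromosome 9, 87725519 to 87731393), read 96.5, 65.5 and 133 in siNT and 245, 289 and 262 in siJMJD6 libraries. The siNT libraries were spread widely, yet all lay below the siJMJD6 ones, and the rise was 2.78-fold (log2 1.48 ± 0.17, limma adjusted p = 5.72e-09). CTSB, the cysteine protease of the same family, went the other way, from 165, 152 and 176 to 73.0, 73.4 and 67.6. Its siJMJD6 libraries lay close together and below all others of the table, a 2.28-fold fall (log2 -1.19 ± 0.13, adjusted p = 2.38e-09). CTSA, the carboxypeptidase that shields the sialidase NEU1 in the lysosome (chromosome 20, 45890144 to 45898820, palindrome printed above), read 568, 596 and 581 and 982, 886 and 922. The groups did not overlap, and the rise was 1.60-fold (log2 0.68 ± 0.082, adjusted p = 2.02e-08). The aspartic protease CTSD rose by 0.26 ± 0.090 and the low CTSV by 1.65 ± 0.33 on the log2 scale, while CTSC, a dipeptidyl peptidase, changed by -0.40 ± 0.11. CTSZ had 0.038 ± 0.10 and CTSH -0.54 ± 0.40, both not called.

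Both membrane glycoproteins rose after heat shock. LAMP2 (chromosome X, 120427827 to 120469365) read 101, 105 and 118 in siNT and 229, 191 and 237 in siJMJD6 libraries after heat shock. All siJMJD6 libraries exceeded all siNT libraries, and the rise was 2.02-fold (log2 1.01 ± 0.12, limma adjusted p = 2.91e-08). LAMP1, the member with 5 copies of CACGTG before its start site, read 308, 305 and 282 and 354, 399 and 390.1, again without overlap (log2 0.35 ± 0.096, adjusted p = 0.00303).

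Autophagy genes were called in both directions. Of the 6 tested genes of initiation and lipid supply 3 rose and 1 fell, of 11 conjugation genes 1 rose and 3 fell, and of 4 tested ATG8 genes 3 rose and 0 fell. In that order, 66.7%, 36.4% and 75% were called, against 46.4% of all genes. Differences between these small groups were not tested. ATG2A, one of the lipid transfer proteins (chromosome 11, 64894546 to 64917248), read 40.5, 53.8 and 45.1 in siNT and 148, 114 and 116 in siJMJD6 libraries. The lowest siJMJD6 library was above the highest siNT one, and the rise was 2.67-fold (log2 1.42 ± 0.18, limma adjusted p = 3.57e-08). Its paralog ATG2B rose from 16.3, 24.4 and 17.9 to 43.3, 50.9 and 47.1 (log2 1.24 ± 0.24), and ATG101 of the ULK1 complex rose by 0.55 ± 0.15. ATG14, the subunit that directs the lipid kinase to autophagy, read 73.5, 59.1 and 73.6 and 40.2, 38.4 and 32.3, and fell without overlap (log2 -0.88 ± 0.18, adjusted p = 0.000123).

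The conjugation genes that fell were ATG12, ATG16L1 and ATG4D. ATG12, the ubiquitin-like protein joined to ATG5, read 119, 108 and 100.2 in siNT and 55.0, 55.4 and 60.7 in siJMJD6 libraries after heat shock. ATG16L1, which brings that conjugate to the membrane (chromosome 2, 233210051 to 233295674), read 60.9, 66.6 and 71.6 and 29.7, 29.9 and 39.2. Neither gene's groups overlapped, and the siJMJD6 libraries of both lay below the basal ones too. The log2 fold changes were -0.92 ± 0.15 for ATG12 (limma adjusted p = 5.78e-06) and -1.0 ± 0.19 for ATG16L1 (adjusted p = 3.55e-05). ATG5, the other protein of the conjugate, was not called at 0.35 ± 0.18 (adjusted p = 0.111). ATG3, the enzyme that passes ATG8 proteins to the lipid, rose by 0.48 ± 0.16 (adjusted p = 0.0143), but without siNT heat shock replicate 1 the value was 0.27 (adjusted p = 0.171) and without siJMJD6 heat shock replicate 2 it was 0.37 (adjusted p = 0.0955). The protease gene ATG4D was lower, at -0.54 ± 0.21 (adjusted p = 0.0338), and its adjusted p was between 0.0631 and 0.127 without siNT heat shock replicate 1 or 2 or without siJMJD6 heat shock replicate 1 or 3. In the ATG8 family MAP1LC3B rose by 0.41 ± 0.11, GABARAPL2 by 0.38 ± 0.11 and GABARAP by 0.27 ± 0.081. Reads of MAP1LC3B and of its near-identical copy MAP1LC3B2 may be shared, and the copy was listed at no more than 2.08 normalised counts.

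**Figure D2:**
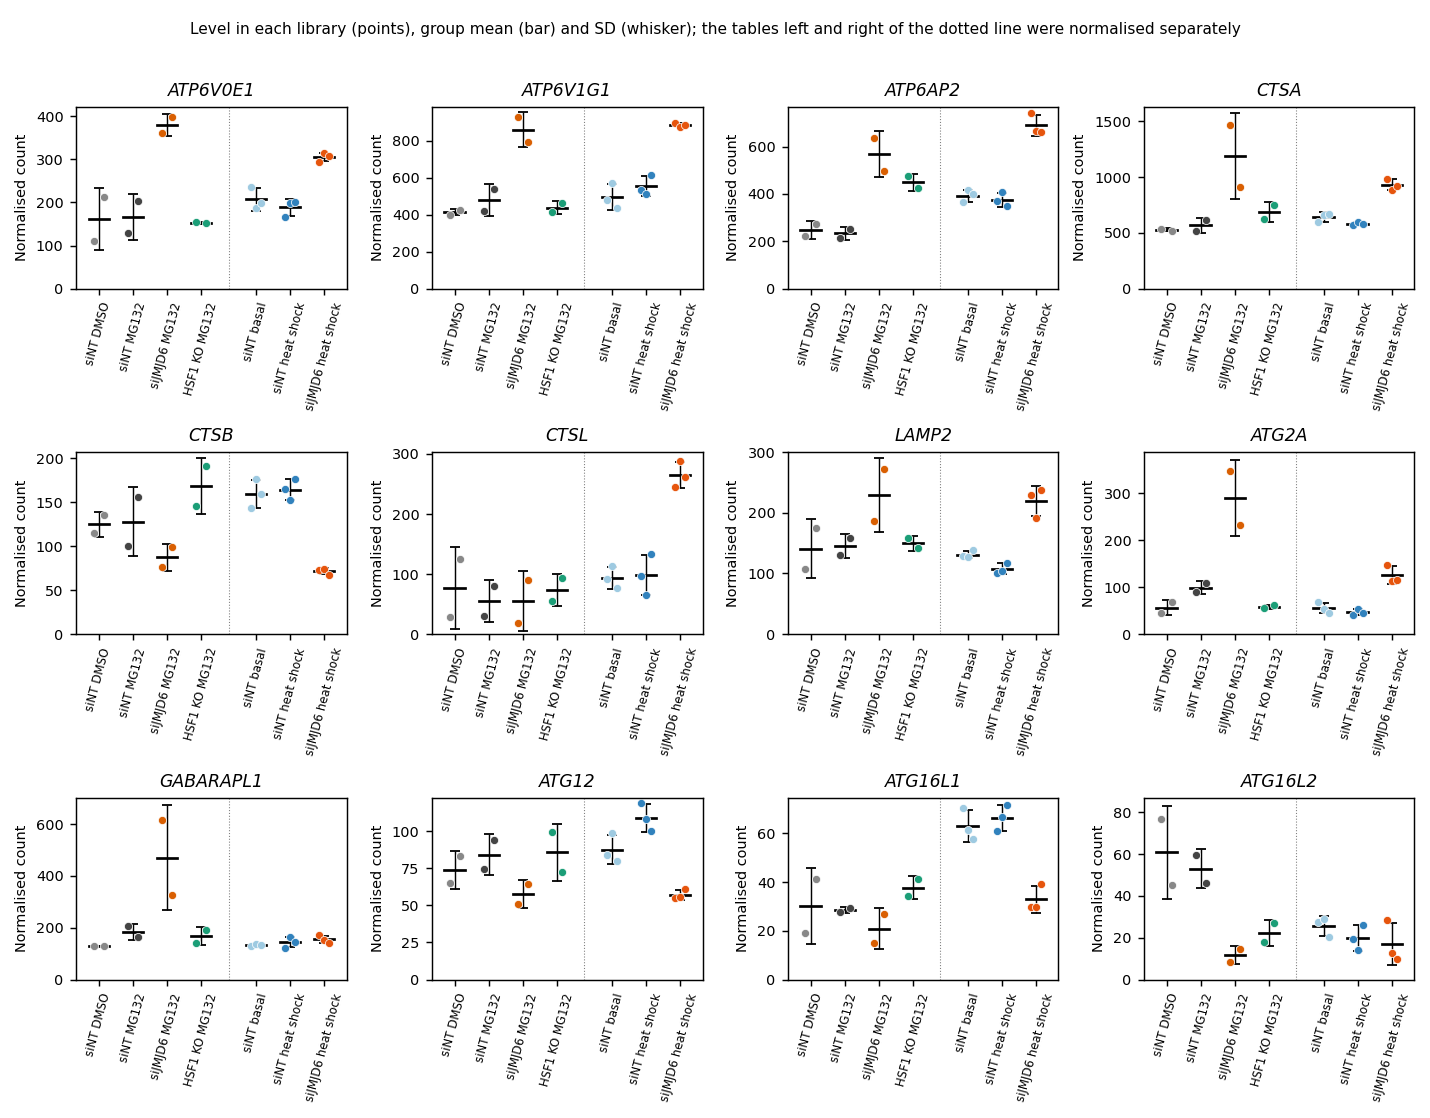
Normalised counts of 12 members in every library (points), with the group mean (bar) and SD (whisker), for the 4 groups of the MG132 table left of the dotted line and the 3 groups of the heat shock table right of it. In ATP6V0E1, ATP6V1G1, ATP6AP2, CTSA, LAMP2 and ATG2A all siJMJD6 libraries lie above the stressed siNT libraries in both tables, CTSL does so in the heat shock table alone, and ATG16L2 is lowest with siJMJD6 in the MG132 table.

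Under MG132 the same knockdown gave fewer calls, in a table with fewer libraries and wider errors. Of 27 lysosome genes 5 rose and 0 fell, and of 21 autophagy genes 4 rose and 1 fell, while 13.6% of all genes were called, 6.22% higher and 7.35% lower. Values above 0 were seen for 22 of 27 lysosome genes and 12 of 21 autophagy genes, against 4664 of 9778 genes tested. The median log2 fold change was 0.55 over lysosome genes, 0.19 over autophagy genes and -0.05 over all genes. Libraries did not overlap and were higher with siJMJD6 in 14 lysosome and 8 autophagy genes, against 24.9% of all genes, and lower in 1 and 4, against 28.1%. The 5 lysosome genes were ATP6V0D1, ATP6V0E1, ATP6V1G1, ATP6AP2 and CTSA, the 4 autophagy genes that rose were ATG2A, ATG5, GABARAP and GABARAPL1, and ATG16L2 fell. These counts rest on few libraries. The siNT MG132 libraries also serve in MG132 against DMSO and in KO against siNT, so these comparisons are not independent. Without siNT MG132 replicate 1 both counts were 0, and all genes called fell from 1327 to 349. Without siNT MG132 replicate 2 the counts were 3 and 3, without siJMJD6 MG132 replicate 1 they were 2 and 3, and without either KO library, which only share the estimate of spread, the lysosome count was 3.

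ATP6AP2 read 214 and 252 in siNT and 638 and 499 in siJMJD6 libraries under MG132. Both siJMJD6 libraries were far above both siNT libraries, and the log2 fold change was 1.27 ± 0.24 (limma adjusted p = 0.00544). ATP6V0E1 read 129 and 203 and 361 and 399, with siJMJD6 above siNT and siNT libraries far from each other (log2 1.23 ± 0.32, adjusted p = 0.0257). ATP6V0D1, the subunit that joins the V0 ring to the central stalk (chromosome 16, 67438014 to 67481237), read 42.3 and 52.0 and 120.0 and 94.9. Its siJMJD6 libraries were also the highest of that table (log2 1.17 ± 0.32, adjusted p = 0.0311). ATP6V1G1 read 419 and 539 and 928 and 793 (log2 0.85 ± 0.23, adjusted p = 0.0290). CTSA read 521 and 614 and 1464 and 915 (log2 1.03 ± 0.25, adjusted p = 0.0202). In CTSA the siJMJD6 libraries differed from each other by more than the siNT libraries did, and in both genes the groups did not overlap. LAMP2, with 131 and 159 and 186 and 272, was separated as well but not called (log2 0.64 ± 0.30, limma adjusted p = 0.184). LAMP1 read 191 and 234 and 213 and 325, with overlap, and was not called either (log2 0.32). CTSL, which rose after heat shock, read 30.9 and 80.4 and 19.2 and 90.2 here, with overlap (log2 -0.25 ± 0.72, adjusted p = 0.853). The low CTSV, with 6.21 and 0.881 and 8.57 and 29.8, had the darkest red cell of the heat map but a wide error, and was not called (log2 2.22 ± 0.78, adjusted p = 0.0756). Without siNT MG132 replicate 1 the adjusted p of the 5 called genes lay between 0.0573 and 0.1996.

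Of the autophagy genes under MG132, ATG2A read 88.6 and 109 in siNT and 346 and 231 in siJMJD6 libraries (log2 1.52 ± 0.31, limma adjusted p = 0.00855). GABARAPL1, an ATG8 protein (chromosome 12, 10212458 to 10223130), read 207 and 163 and 615 and 327 (log2 1.29 ± 0.31, adjusted p = 0.0179). In both genes siJMJD6 replicate 1 was the highest library of the table and the groups did not overlap. Without that library GABARAPL1 was at 0.83 (adjusted p = 0.103). GABARAP read 590.2 and 680.0 and 1518 and 991 (log2 0.95 ± 0.25, adjusted p = 0.0256), and here too replicate 1 was highest. ATG5 read 14.5 and 29.3 and 47.8 and 85.7 (log2 1.59 ± 0.41, limma adjusted p = 0.0248), where replicate 2 was highest and siNT replicate 1 lowest. The siNT DMSO libraries read 43.8 and 44.0 for ATG5, near siJMJD6 replicate 1. The lower value with MG132 and the rise with siJMJD6 thus share the same siNT MG132 libraries. ATG16L2, a paralog of ATG16L1, was the gene that fell, from 59.7 and 46.4 to 8.59 and 14.8 (log2 -2.12 ± 0.43, adjusted p = 0.00758). Both siJMJD6 libraries were below all others of the table. After heat shock ATG16L2 read 19.3, 14.1 and 26.3 in siNT and 28.4, 12.8 and 9.77 in siJMJD6 libraries, with overlap, and was not called. Without siNT MG132 replicate 1 these 5 genes had an adjusted p between 0.0592 and 0.187.

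Set side by side, the knockdown comparisons come from tables that share no library. Of the 48 members, 6 rose in both, namely ATP6V0E1, ATP6V1G1, ATP6AP2, CTSA, ATG2A and GABARAP. They are 66.7% of the 9 that rose under MG132 and 28.6% of the 21 that rose after heat shock, against 84.1% of 580 and 24.4% of 2001 for all 9379 genes tested in both tables. No member was called in opposite directions or lower in both, and 16 were called in neither. Over all 9379 genes, 13 were called in opposite directions, 575 lower in both and 4772 in neither. Effects had the same sign in 35 of the 48 members and in 6939 of the 9379 genes. They correlated at Pearson's r = 0.59 across the members, against 0.70 over all 9379 genes. Genes are not independent replicates, and the r values only describe the plot. Of 12 lysosome genes that rose in at least 1 of these comparisons and had a promoter, 4 held TCACGTGA (33.3%). Of 7 tested ones that did not rise, 0 did. The palindrome was in 17.4% of all lysosome members with a promoter and in 1.04% of all genes. Of its carriers, ATP6V0D1 was called only under MG132 and LAMP1 only after heat shock. Of 9 autophagy genes that rose, all with a promoter, 0 held it. Differences between these small counts were not tested.

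**Figure D3:**
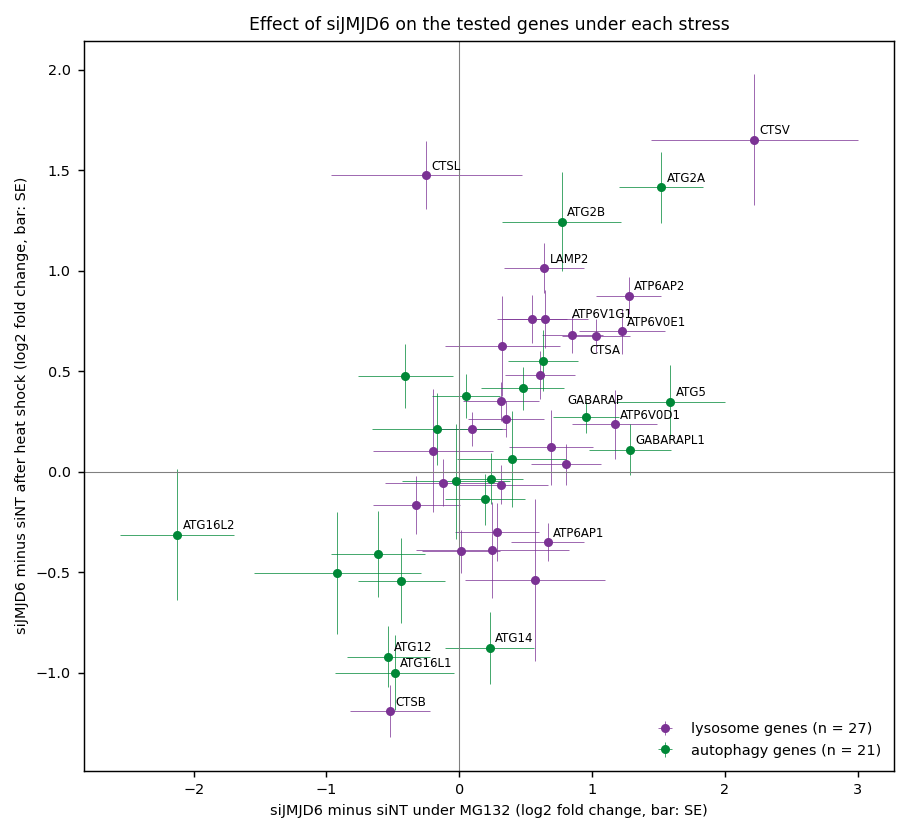
Log2 fold change of siJMJD6 against siNT under MG132 (horizontal) and after heat shock (vertical) for the 27 lysosome and 21 autophagy genes tested in both tables, with bars of 1 standard error. ATP6AP2, ATP6V0E1 and ATG2A lie in the upper right, CTSL is high on the vertical axis alone, CTSB, ATG12 and ATG16L1 lie in the lower left, and ATP6AP1 is to the right and below 0.

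**Figure D4:**
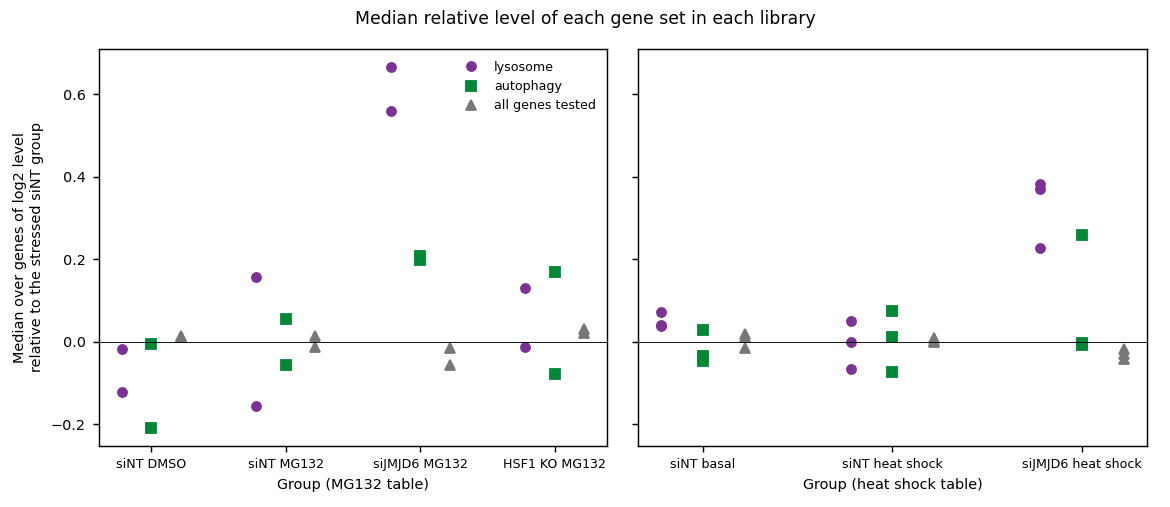
Median over genes of the log2 level relative to the mean of the stressed siNT group, for lysosome genes, autophagy genes and all genes tested, with 1 symbol per library and 1 panel per table. The lysosome medians of the siJMJD6 libraries are 0.66 and 0.56 under MG132 and between 0.23 and 0.38 after heat shock, above those of all siNT libraries of their table, while 2 of the 3 autophagy medians after heat shock lie just below 0.

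The separation by library is seen in the plot of medians. Lysosome medians of the siNT MG132 libraries were -0.16 and 0.16, and those of the siJMJD6 MG132 libraries were 0.66 and 0.56. Autophagy medians of siJMJD6 libraries were 0.21 and 0.20 under MG132, and 0.26, -0.0043 and -0.0075 after heat shock. Medians over all genes stayed between -0.06 and 0.03 in every library.

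Summed levels of marker genes of the line and of other cells were set side by side for siJMJD6 and siNT libraries, and the sums were not tested. Of 7 blood-cell genes, chosen because macrophages are rich in lysosomes, 1 passed the test filter, CD68, whose protein is itself lysosomal, and the monocyte gene CD14 stayed under 10 normalised counts in every library of both tables. The sum over the list was 43.9 to 46.7 normalised counts in siJMJD6 and 28.9 to 32.2 in siNT libraries under MG132, and 38.2 to 46.4 against 24.7 to 36.6 after heat shock. It was 31.0 to 43.0 in basal siNT libraries, which overlapped those of siJMJD6 after heat shock, and 19.8 to 51.5 in KO libraries. The sum of the fibroblast list, of which 2 of 4 genes passed the filter, was 35.2 to 51.2 with siJMJD6 against 107 to 251 under MG132 and 108 to 157 against 262 to 305 after heat shock. It is mostly COL1A2, which fell in both tables (log2 -3.0 ± 0.39, limma adjusted p = 0.000530, and -1.96 ± 0.14, adjusted p = 4.81e-14), while COL1A1, the other tested gene of that list, rose in both (2.55 ± 0.78, adjusted p = 0.0463, and 0.86 ± 0.22, adjusted p = 0.00183). The epithelial sum was 2141 to 2472 against 1479 to 2026 under MG132 and 2654 to 2881 against 2310 to 2500 after heat shock, mostly from KRT18 and KRT19. CDH1, of the same list, read 41.2 and 51.1 in siNT and 36.2 and 11.99 in siJMJD6 libraries under MG132, lower and not called (adjusted p = 0.149). The mesenchymal sum was 593 to 754 against 752 to 827 under MG132, with overlap, and 815 to 881 against 904 to 953 after heat shock. The part of these in the result on the lysosome genes was not tested.

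Loss of HSF1 under MG132 gave 0 called members by limma against siNT, where 1.28% of all genes were called, 0.276% higher and 1% lower. At an unadjusted p under 0.05 there were 5 members with higher and 3 with lower values, 10.4% and 6.25% of the 48, against 5.88% and 6.93% of all genes. ATP6AP2 read 475 and 424 in KO and 214 and 252 in siNT libraries, a log2 fold change of 0.95 ± 0.24 (limma adjusted p = 0.0906). Both KO libraries lay above the siNT libraries and below the siJMJD6 ones. The gene passed the threshold without siJMJD6 MG132 replicate 1 (adjusted p = 0.0441) or 2 (adjusted p = 0.0429). ATP6V0E2 read 135 and 98.0 and 41.2 and 67.1 (log2 1.11 ± 0.33, adjusted p = 0.144), and the KO libraries were higher. ATG7, the activating enzyme of the conjugation system, read 18.0 and 10.4 and 32.9 and 31.2 (log2 -1.17 ± 0.41, adjusted p = 0.229), and the KO libraries were lower. Such separation was found higher in 23.7% and lower in 21.7% of all genes. The others were ATP6V1E1, ATG3 and MAP1LC3B with higher values and ATG2A and ATG16L2 with lower ones. The median log2 fold changes were 0.05 over lysosome genes, 0.08 over autophagy genes and 0.01 over all genes.

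KO and siJMJD6 cells were also compared directly under MG132, with 20.8% of all genes called, 11.1% higher and 9.69% lower in the KO. This comparison shares the siJMJD6 libraries with the one against siNT, so the values are given side by side and not as further support. Of 27 lysosome genes 1 was higher in the KO and 4 were lower, and of 21 autophagy genes 1 was higher and 5 were lower. ATG2A read 54.9 and 60.9 in KO and 346 and 231 in siJMJD6 libraries (log2 -2.27 ± 0.31, limma adjusted p = 0.000462). The groups were far apart, and the KO libraries lay below the siNT MG132 libraries as well. The KO libraries were all higher than the siJMJD6 ones in 32.4% and all lower in 28.7% of all genes. ATP6V0E1 (-1.31 ± 0.32), ATP6V0D1 (-1.30 ± 0.32), ATP6V1G1 (-0.97 ± 0.23) and ATP6AP1 (-0.97 ± 0.27) were lower in the KO, with an adjusted p between 0.0105 and 0.0242. The same 4 genes had 1.23 ± 0.32, 1.17 ± 0.32, 0.85 ± 0.23 and 0.67 ± 0.27 for siJMJD6 against siNT. ATP6AP2 was not called between KO and siJMJD6 (-0.33 ± 0.24, adjusted p = 0.357), and neither was CTSA (-0.75 ± 0.25, adjusted p = 0.0516). CTSB was higher in the KO, at 145 and 191 against 76.6 and 98.5 (log2 0.93 ± 0.30, adjusted p = 0.0433).

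Among the autophagy genes that were lower in the KO than with siJMJD6, GABARAPL1 was at -1.44 ± 0.31 (limma adjusted p = 0.00648), GABARAP at -0.89 ± 0.25 (adjusted p = 0.0238) and ATG7 at -1.57 ± 0.41 (adjusted p = 0.0166). The protease gene ATG4B was at -0.74 ± 0.25 (adjusted p = 0.0493). ATG3 was higher, at 127 and 121 in the KO against 35.2 and 82.7 with siJMJD6 (log2 1.18 ± 0.36, adjusted p = 0.0336). Its siJMJD6 libraries were far apart, and without siJMJD6 MG132 replicate 1 the value was 0.58 (adjusted p = 0.233), without replicate 2 it was 1.79 (adjusted p = 0.00203). GABARAP was at -0.58 (adjusted p = 0.134) without siJMJD6 MG132 replicate 1. Of the genes called between KO and siJMJD6, ATG2A was the only one still called whichever library was left out. Each of the others lost the call without KO A or KO B, with an adjusted p then between 0.0572 (ATP6V1G1, without KO B) and 0.259 (CTSB, without KO B). The counts of lysosome and autophagy genes called were 0 and 2 without KO A, 1 and 2 without KO B, and 3 and 3 without siJMJD6 MG132 replicate 1. The lysosome count was 8 without siJMJD6 MG132 replicate 2.

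Other genes of the same pathways were read from lists that leave out the members. These lists were chosen with earlier results of these data known and were read in the same libraries, so they are not separate support. Of 33 tested further lysosomal genes (hydrolases, membrane proteins and sorting receptors), 8 rose and 0 fell with siJMJD6 under MG132, and 14 rose and 4 fell after heat shock, with median log2 fold changes of 0.70 and 0.45. The shares that rose were 24.2% and 42.4%, against 6.22% and 21.4% of all genes, and the shares that fell were 0% and 12.1%, against 7.35% and 24.9%. NEU1, the sialidase that forms a complex with CTSA, read 25.8 and 25.5 in siNT and 206 and 179 in siJMJD6 libraries under MG132, and 61.7, 35.9 and 44.9 against 205, 191 and 251 after heat shock. The groups were far apart in both tables (log2 2.86 ± 0.34, limma adjusted p = 0.000350, and 2.18 ± 0.18, adjusted p = 2.76e-12). In the KO under MG132 it read 22.4 and 16.6, below both siNT libraries, and was not called against siNT. Such separation was found in 21.7% of all genes, and siNT cells with DMSO read 22.6 and 20.5. GRN, which codes for progranulin, had 1.15 ± 0.30 and 0.96 ± 0.080, and the thioesterase gene PPT1 had 1.18 ± 0.30 and 0.63 ± 0.074, all called. Under MG132 alone, after heat shock alone and in the KO against siNT, limma called 0 of the 33, against 0.266%, 4.09% and 1.28% of all genes. Unadjusted limma p-values under 0.05 went to 1, 2 and 2 of them. These were 3.03%, 6.06% and 6.06% of the list, against 5.66%, 15.1% and 12.8% of all genes.

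Of 26 further autophagy genes, 1 rose and 2 fell with siJMJD6 under MG132, and 3 rose and 8 fell after heat shock, with medians of -0.09 and -0.0099. The shares called, 11.5% and 42.3%, were close to the 13.6% and 46.4% of all genes. WIPI1, which binds the lipid made by the ATG14 complex, read 64.9, 51.8 and 43.4 in siNT and 10.7, 7.61 and 11.7 in siJMJD6 libraries after heat shock. It fell in both tables (log2 -1.68 ± 0.52, limma adjusted p = 0.0480, and -2.3 ± 0.24, adjusted p = 8.13e-10). RB1CC1, the scaffold of the ULK1 complex, also fell in both (-1.51 ± 0.38 and -1.64 ± 0.19). ZFYVE1, a marker of the membrane from which autophagosomes form, was called higher with siJMJD6 in both tables (1.49 ± 0.37 under MG132, limma adjusted p = 0.0213). It was also called for heat shock alone (1.04 ± 0.23, adjusted p = 0.00400), together with NRBF2 of the lipid kinase complex (0.66 ± 0.12, adjusted p = 0.000229). The cargo receptor gene SQSTM1 read 289.9 and 264 with DMSO and 482 and 575 with MG132 in siNT cells. Those groups did not overlap, and it was not called (log2 0.93 ± 0.23, adjusted p = 0.242).

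Of 20 tested regulators at the lysosome surface, 1 rose with siJMJD6 under MG132, and 5 rose and 3 fell after heat shock. The shares called were 5% and 40%, against 13.6% and 46.4% of all genes, and with so few genes the difference was not tested. RRAGA, a Rag GTPase that recruits mTORC1, was the gene that rose in both (1.18 ± 0.32 and 0.76 ± 0.15). LAMTOR5, of the complex that anchors the Rag GTPases, read 218, 209.7 and 204 in siNT and 63.6, 66.1 and 104 in siJMJD6 libraries after heat shock, and fell (log2 -1.46 ± 0.14, limma adjusted p = 2.11e-10). RRAGD, another Rag GTPase, was the 1 gene of these lists called in the KO against siNT, with 16.5 and 36.0 in siNT and 0 and 1.07 in KO libraries (limma adjusted p = 0.00678). TFE3, a factor that binds the palindrome, was not called in the siJMJD6 comparisons (0.024 ± 0.27 and 0.11 ± 0.13), and TFEB did not pass the filter for testing. MITF, of the same family, read 10.3 and 11.3 in siNT and 27.7 and 32.5 in siJMJD6 libraries under MG132. Those groups did not overlap, and it was not called there (log2 1.39 ± 0.53, adjusted p = 0.103) or after heat shock (0.31 ± 0.22, adjusted p = 0.253).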

How the data were processed

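RNA of PC3M cells was prepared with Lexogen QuantSeq FWD, per the labels' protocols. The deposited signal values are the authors' normalised counts, in 1 table per experiment. The submitters' processing notes name FastQC 0.11.2, STAR 2.6.0, HTSeq (version not stated) and build hg38. Nothing in the sources used here gives the scaling method, annotation or strand setting. Libraries of a group also differed in how many genes stood at exactly 0. Under MG132 these were 0 and 1639 in siNT replicates 1 and 2, and 0 and 1186 in siJMJD6 replicates 1 and 2. Why this is so is not stated, and it may bear on the values of low genes. Whole reads could not be recovered, since the share of values within 5% of a whole step was between 12.7% and 98.2% by library, so the depth in reads is unknown and the analysis used log2 of each value after adding 1.

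All groups of a table were fitted together with limma 3.58.1 in R 4.3.3, with trended moderated variances. P-values were adjusted by Benjamini-Hochberg over all genes tested (9778 in the MG132 table, 9831 in the heat shock table), with calls made at an adjusted p below 0.05. The tables were normalised separately, so each test stayed within 1 table. Errors after ± are standard errors of the log2 fold change, which understates changes of low genes because of the added count. The procedure was tested on simulated data. Libraries were grouped by their labels, and replicate numbers were not used as pairs. Alternatives were a pseudocount of 10, no filter, TMM scaling, quantile normalisation, only the compared groups, a replicate block and leaving out each library.

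The members and lists were chosen with earlier results of these data known. Members were named where called (the 8 smallest adjusted p in each direction where more than 15 were), where called in at least 2 comparisons, and as the smallest p of each role group without a call. ATP6V1C1, CTSC, CTSL, CTSV and CTSA in comparisons outside that rule, and the remaining called genes, were named after their values were seen. So were LIPA and, after heat shock, ATG16L2. Other cell types were read from lists of marker genes. Promoters are from RefSeq.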

Additional observations from a re-analysis of the deposited data

Results flagged for a closer look

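ATP6AP1, an accessory gene of the vacuolar ATPase, had opposite signs in the siJMJD6 comparisons. Under MG132 both siJMJD6 libraries lay above both siNT libraries, with a log2 fold change of 0.67 (limma adjusted p = 0.128, not called). After heat shock all 3 siJMJD6 libraries lay below all 3 siNT libraries, with -0.35 (limma adjusted p = 0.00309, called). The tables were normalised separately, and the difference between the effects was not tested.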

How the results depend on the processing

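When 1 library was left out, siJMJD6 against siNT after heat shock had from 14 to 17 lysosome and from 8 to 11 autophagy genes called. The same ranges were 0 to 6 and 0 to 5 for siJMJD6 against siNT under MG132, and 0 to 8 and 2 to 5 for HSF1 KO against siJMJD6. They were 0 to 1 lysosome genes for KO against siNT and for heat shock against basal, and 0 for MG132 against DMSO and for the autophagy genes of those 3 comparisons. With no filter on low values, siJMJD6 under MG132 had 1 lysosome and 2 autophagy genes called and KO against siJMJD6 had 2 and 3. With only the compared groups in the fit, siJMJD6 under MG132 had 2 and 3, KO against siJMJD6 had 3 autophagy genes, and KO against siNT had 1 lysosome gene. The cause was not tested. Of all counts recomputed, 142 stayed within 1.5 times of the reported count and 26 did not. Of the values of named members, 806 kept their direction and side of the threshold, 85 kept the direction and lost the call, 4 gained one and 3 changed sign. Those 3 were small and not called: ATP6AP1 for MG132 against DMSO (-0.15 without siNT MG132 replicate 2 and 0.45 without replicate 1), LAMP1 for the same comparison (-0.083 without siNT DMSO replicate 1 and 0.49 without replicate 2) and LAMP1 for KO against siNT (0.096 without siNT MG132 replicate 2 and -0.20 without replicate 1). Under the other scalings no count moved by more than 1.5 times.

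The labels do not say that replicate numbers mark a shared batch, and the libraries were not treated as pairs. Deviations from group means correlated between same-numbered libraries at r between -0.035 and 0.094 in the heat shock table. In the MG132 table, which has only 2 numbers, r was 0.37 between siNT DMSO and siNT MG132, 0.32 between siNT DMSO and siJMJD6 and 0.045 between siNT MG132 and siJMJD6. A replicate block, fitted without the KO libraries, which carry letters, called 6 lysosome and 5 autophagy genes for siJMJD6 under MG132 and 17 and 11 after heat shock, and 0 for MG132 against DMSO and heat shock against basal. Over all genes it called 1792 in place of 1327 for siJMJD6 under MG132 and 40 in place of 26 for MG132 against DMSO, with fewer genes tested (9554). With 2 libraries in a group, a median standard error of 0.394 on the log2 scale limits what the MG132 table can show, and genes not called there may still differ.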
